A study of Homo sapiens with 24 samples.

Results

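The 9 genes described here, followed across 4 lines and all treatments, are the transcription factors FOXA1, HOXB13, GATA2, SOX9, GRHL2, SPDEF and KLF5 of the luminal prostate epithelium, the glucocorticoid receptor gene NR3C1, and FKBP5, which encodes a cochaperone of steroid receptors and is itself no transcription factor. They were taken by name, as the pioneer and lineage factors that work beside the androgen receptor and the glucocorticoid receptor with its classical response gene. The platform table gave these 9 genes 25 probe sets with a single gene symbol, of 54613 probe sets tested and 19775 genes so named.

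RNA was profiled on 24 Affymetrix U133 Plus 2.0 arrays from LNCaP, VCaP, PC3 and NCI-H660, established lines of human prostate cancer. The first 3 come from metastases of adenocarcinoma, and NCI-H660 is a neuroendocrine line. Each line was given DMSO as vehicle, 0.5 µM or 10 µM I-BET762 (GSK525762A) for 24 hours, an inhibitor that occupies the acetyl-lysine pockets of the BET bromodomain proteins. Every one of these 12 groups had 2 arrays, which were biological replicates of 1 line grown in culture, so p-values measure the spread between cultures of a line and not between tumours.

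In the luminal prostate epithelium FOXA1 and GATA2 open chromatin for the androgen receptor, and HOXB13 directs where that receptor binds. SOX9, GRHL2, SPDEF and KLF5 set epithelial identity beside them, and several of these genes are regulated by androgen in turn. The glucocorticoid receptor recognises nearly the same DNA element as the androgen receptor, and FKBP5 is induced through both, acting on the receptors' chaperone complex.

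Promoters are shown for 4 members whose signals moved differently: FOXA1 and KLF5, which rose with I-BET762 on the LNCaP-labelled arrays and on the VCaP-labelled ones, SPDEF, which fell on both, and NR3C1, the receptor gene. Each is the RefSeq sequence of GRCh38.p14 from 250 bases before to 50 bases after the transcription start that the RefSeq table gives for the gene, written 5′ to 3′ along the gene's strand, and 6 of the 9 members had an entry. Capitals mark matches to the motifs searched on both strands. FOXA1 lies on the minus strand at chr14:37595200-37595499, KLF5 on the plus strand at chr13:73058755-73059054, SPDEF on the minus strand at chr6:34556280-34556579 and NR3C1 on the minus strand at chr5:143403234-143403533.
FOXA1: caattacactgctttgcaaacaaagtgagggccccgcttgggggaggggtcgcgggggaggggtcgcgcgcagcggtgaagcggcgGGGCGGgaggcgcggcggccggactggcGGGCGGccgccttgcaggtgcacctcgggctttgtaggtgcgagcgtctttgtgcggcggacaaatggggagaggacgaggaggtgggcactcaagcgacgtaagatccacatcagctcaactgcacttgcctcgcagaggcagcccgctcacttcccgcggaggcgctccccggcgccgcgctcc
KLF5: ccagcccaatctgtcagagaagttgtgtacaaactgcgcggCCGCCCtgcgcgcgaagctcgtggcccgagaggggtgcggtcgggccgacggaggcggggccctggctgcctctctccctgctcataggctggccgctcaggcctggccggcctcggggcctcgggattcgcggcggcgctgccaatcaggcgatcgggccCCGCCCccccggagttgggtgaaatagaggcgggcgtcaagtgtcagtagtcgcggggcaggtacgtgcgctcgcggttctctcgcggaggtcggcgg
SPDEF: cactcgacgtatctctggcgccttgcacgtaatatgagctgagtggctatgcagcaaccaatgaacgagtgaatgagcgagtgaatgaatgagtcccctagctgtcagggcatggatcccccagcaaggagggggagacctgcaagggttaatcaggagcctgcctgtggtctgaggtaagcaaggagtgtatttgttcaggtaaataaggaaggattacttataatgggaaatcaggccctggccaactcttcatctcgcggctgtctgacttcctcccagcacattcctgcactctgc
NR3C1: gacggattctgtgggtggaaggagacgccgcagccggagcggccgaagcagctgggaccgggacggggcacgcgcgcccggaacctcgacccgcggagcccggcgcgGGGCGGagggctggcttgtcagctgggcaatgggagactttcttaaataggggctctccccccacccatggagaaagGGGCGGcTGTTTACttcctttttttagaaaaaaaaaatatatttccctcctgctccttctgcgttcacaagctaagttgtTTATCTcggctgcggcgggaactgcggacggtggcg
The motifs were the steroid receptor half-site AGAACA (in 14.8% of 35116 RefSeq promoters of this length), its inverted repeat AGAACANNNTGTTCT (0.00285%), the forkhead core TGTTTAC (3.42%), the GATA core AGATAA (10.3%), the E-box CACGTG (7.26%) and the GC box GGGCGG (45%). The half-site is part of the inverted repeat, and no matches overlapped in the printed promoters. FOXA1 and KLF5 held 2 GC boxes each, those of KLF5 on the opposite strand, where they read CCGCCC. SPDEF matched none of the motifs and had a GC content of 52%, against 69.3% in FOXA1 and 71.3% in KLF5. NR3C1 held 1 forkhead core, 1 GATA core on the opposite strand and 2 GC boxes. Of the members not printed, GATA2 had no match, and FKBP5 had 1 E-box and 6 GC boxes at a GC content of 76%. A match is a description of these letters only, and binding was not measured.

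The deposited values are MAS5 signals, probe intensities on a linear scale which the authors had brought to a common target of 500. Median signals lay between 72.24 and 100.3 and 44.35% to 50.05% of probe sets reached 100 on an array, which was taken as the detection floor. Replicates correlated at 0.9338 to 0.9528 over the log2 signals of all probe sets, and 2 arrays a group limit the precision of every mean. A gene passed when its adjusted p was under 0.1 (limma, Benjamini-Hochberg over all probe sets) and its mean signal was at least 100 in a compared group. Changes are on the log2 scale, treated minus vehicle. In these bulk samples fewer cells carrying a transcript and less of it per cell cannot be told apart.

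The labels of LNCaP and VCaP went against the genes that distinguish these lines. ERG, the ETS factor driven by the TMPRSS2 fusion of VCaP, had signals of 2867 to 7084 on the 6 LNCaP-labelled arrays and 5.86 to 28.3 on the 6 VCaP-labelled ones. ETV1, the ETS factor rearranged in LNCaP, had 14.5 to 90.3 on the LNCaP-labelled arrays and 192 to 408 on the VCaP-labelled ones. NR3C1, which LNCaP cells are known for lacking, had 341 to 638 on the LNCaP-labelled arrays and 10.8 to 60.7 on the VCaP-labelled ones. All values are therefore given for arrays as labelled, changes within a label do not depend on which line it is, and comparisons between the labels hold for the arrays so named.

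Markers of the labelled cell types were present. Luminal epithelial markers (KRT8, KRT18, KRT19, CDH1, EPCAM and KLK3) reached the floor in vehicle for 6 of 6 on the LNCaP-labelled arrays, and for 5 of 6 on the VCaP-labelled ones (KRT19 under it), in PC3 and in NCI-H660 (KLK3 under it in both). The luminal markers summed to 66020 to 66810 in PC3 and to 40140 to 42380 in NCI-H660. On the VCaP-labelled arrays they summed to 52690 to 53730, and on the LNCaP-labelled ones to 48810 to 50640. All 7 neuroendocrine markers measured reached the floor in NCI-H660, at a summed signal of 27010 to 27270, against 1257 to 2784 in the others. On the LNCaP-labelled arrays 6 of the 7 also reached it (NCAM1 under it), and on the VCaP-labelled ones and in PC3 2 of 7 did. Basal and mesenchymal markers summed to 13950 to 13960 in PC3 and to 886 to 5258 elsewhere. In PC3 4 of 7 reached the floor, CD44, FN1, VIM and CDH2, while ZEB1 and the basal keratins KRT5 and KRT14 lay under it. On the LNCaP-labelled arrays and in NCI-H660 4 of 7 reached it too, and on the VCaP-labelled ones 2 of 7 did. ZEB1 reached the floor in NCI-H660 only (mean 471). The only line in which a basal keratin reached the floor was that labelled LNCaP (KRT14, mean 329). Of 6 fibroblast and leukocyte markers, 1 or 2 reached the floor in each line. At 10 µM against vehicle, 3 of 6 luminal markers rose and 2 fell on the LNCaP-labelled arrays, where 2 of 7 neuroendocrine markers rose. Of 5 detected basal and mesenchymal markers there, 3 fell and 1, CDH2, rose (limma adjusted p = 0.00329). CDH2 lay under the floor in vehicle (mean 15.9) and averaged 150 at 10 µM, a rise of at least 1.497-fold. Of 5 luminal markers on the VCaP-labelled arrays 2 fell, KLK3 by 2.10 and EPCAM by 0.29, and 1 of 2 basal and mesenchymal markers, VIM, rose by 1.01. In PC3 2 of 5 luminal markers rose, and of 4 basal and mesenchymal ones 1 rose and 1 fell. In NCI-H660 1 of 5 luminal markers, CDH1, rose by 0.44 (limma adjusted p = 0.0156), and by limma 0 of 7 neuroendocrine and 0 of 4 basal and mesenchymal ones passed. INSM1 averaged 7711 ± 642 in vehicle and 1603 ± 158 at 10 µM there, uncalled in a model whose spread takes in arrays of other lines under the floor. Of all detected genes, 27.1% rose and 26.7% fell on the LNCaP-labelled arrays at 10 µM, 20.1% and 21.8% on the VCaP-labelled ones, 16.1% and 14.0% in PC3, and 16.9% and 16.8% in NCI-H660. The part of these markers in the changes of the members was not tested.

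In vehicle, the luminal factors were highest on the LNCaP-labelled and VCaP-labelled arrays, and KLF5, SOX9 and NR3C1 were highest in PC3 or NCI-H660. Members that differed between lines numbered 5 of 9 between the LNCaP-labelled and VCaP-labelled arrays (61.9% of all detected genes differed), 9 between the LNCaP-labelled ones and PC3 (65.6%), 9 between the LNCaP-labelled ones and NCI-H660 (71.9%), 8 between the VCaP-labelled ones and PC3 (65.6%), 9 between the VCaP-labelled ones and NCI-H660 (71.3%) and 6 between PC3 and NCI-H660 (70.6%). The counts of 5 and 6 of 9 lie near the shares of all genes, and those of 8 and 9 lie above them. NR3C1 lost its difference between the LNCaP-labelled arrays and PC3 without any 1 of their 4 vehicle arrays, which left 8.

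FOXA1 signals in vehicle averaged 3992 ± 17.6 on the LNCaP-labelled arrays, 2751 ± 138 on the VCaP-labelled ones, 1046 ± 1.18 in NCI-H660 and 901 ± 39.4 in PC3 (SD, n = 2 each). The step between the labels LNCaP and VCaP passed (log2 difference 0.54, limma adjusted p = 0.012) and that between PC3 and NCI-H660 did not (adjusted p = 0.285). These steps depended on the probe set, since with the second one, 237086_at, PC3 lay below NCI-H660 by 1.24 (adjusted p = 7.97e-07), while the VCaP-labelled arrays did not differ from NCI-H660 beyond their spread (-0.17, adjusted p = 0.282). GATA2 averaged 6977 ± 317 on the LNCaP-labelled arrays, 2092 ± 49.8 on the VCaP-labelled ones, 713 ± 22.8 in PC3 and 457 ± 12.8 in NCI-H660, and every neighbouring pair passed. HOXB13 averaged 7008 ± 163 on the LNCaP-labelled arrays and 6233 ± 161 on the VCaP-labelled ones (adjusted p = 0.903), 802 ± 19.2 in PC3, and lay under the floor in NCI-H660, at least 70.1-fold lower than on the LNCaP-labelled arrays.

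GRHL2 followed a similar order but remained detected in all lines, at 4757 ± 260 on the LNCaP-labelled arrays, 2998 ± 185 on the VCaP-labelled ones, 2819 ± 140 in PC3 and 1068 ± 160 in NCI-H660. The VCaP-labelled arrays and PC3 did not differ beyond their spread for this gene (adjusted p = 0.694). SPDEF averaged 5289 ± 146 on the LNCaP-labelled arrays and 3417 ± 95 on the VCaP-labelled ones (adjusted p = 0.123), 1064 ± 73.7 in PC3 and 147 ± 83 in NCI-H660. FKBP5 averaged 7202 ± 119 on the VCaP-labelled arrays and 7100 ± 163 on the LNCaP-labelled ones (adjusted p = 0.93), 1840 ± 62.9 in PC3 and 1627 ± 32.2 in NCI-H660 (adjusted p = 0.285 between the last pair). HOXB13, SPDEF, GRHL2 and FKBP5 were all brighter on the LNCaP-labelled and VCaP-labelled arrays than in NCI-H660, each past the test.

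The order was different for the remaining members. KLF5 averaged 1776 ± 13.1 in PC3, 794 ± 113 in NCI-H660, 186 ± 21.9 on the LNCaP-labelled arrays and 152 ± 23.5 on the VCaP-labelled ones (adjusted p = 0.214 between the labels LNCaP and VCaP). SOX9 averaged 3663 ± 330 in PC3, 1060 ± 48.5 on the LNCaP-labelled arrays and 312 ± 22.7 in NCI-H660, and lay under the floor at 88.1 ± 14.3 on the VCaP-labelled ones. NR3C1 averaged 2896 ± 228 in NCI-H660, 1553 ± 83.5 in PC3 (adjusted p = 0.169 between them) and 632 ± 7.78 on the LNCaP-labelled arrays. On the VCaP-labelled arrays it lay under the floor at 41.9 ± 26.7, so that the LNCaP-labelled arrays were at least 6.32-fold higher (adjusted p = 1.62e-05).

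**Figure D1:**
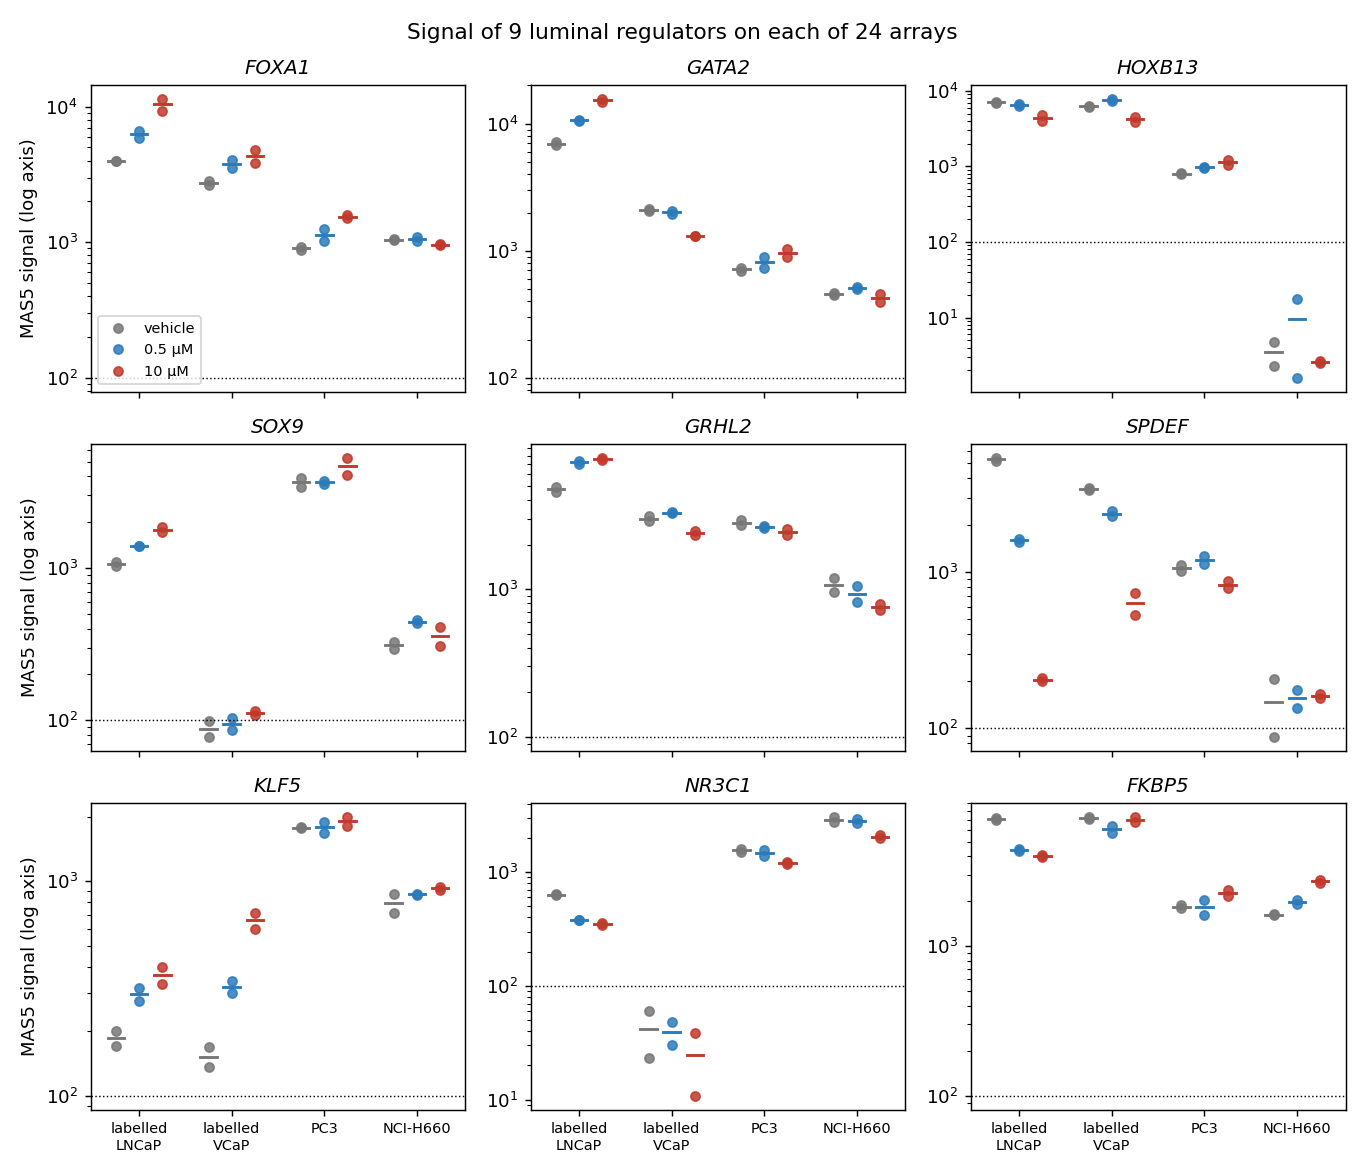
MAS5 signal (log axis) of each of the 9 genes by label of the line, with 24 arrays as dots coloured by treatment (vehicle grey, 0.5 µM I-BET762 blue, 10 µM red), bars at the means of 2 arrays and a dotted line at the floor of 100. SPDEF falls stepwise with concentration on the LNCaP-labelled arrays, where the 10 µM arrays lie at 200 and 209.9, while KLF5 climbs on the VCaP-labelled ones and NR3C1 stays under the floor there.

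Against vehicle, 15 of the 36 gene-by-line values passed at 10 µM and 8 at 0.5 µM, 5 and 2 of them by more than the 2-fold that the methods require. Some of the 36 lay under the floor in both groups and could not pass, and the same 9 genes recur in each line. Shares of all genes are given by line below, and none was counted for the 2-fold minimum. On the LNCaP-labelled arrays at 0.5 µM, 4 of 9 detected members rose (17.4% of all detected genes rose) and 2 fell (16.5%), with a median change of 0.40 against 0.03 for all genes. At 10 µM 5 rose there (27.1%) and 2 fell (26.7%), with a median of 0.68 against 0.03. On the VCaP-labelled arrays at 0.5 µM, 2 of 7 detected members rose (11.8%) and by limma 0 fell (13.2%), and also 0 at an unadjusted p under 0.05. At 10 µM 2 of 8 rose (20.1%) and 2 fell (21.8%), with a median of -0.18 against 0.02.

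PC3 and NCI-H660 showed fewer calls. In PC3 at 0.5 µM limma called 0 of 9 members higher (6.66%) and 0 lower (4.44%), with 1, FOXA1, past an unadjusted p under 0.05. At 10 µM 2 rose in PC3 (16.1%) and by limma 0 fell (14.0%), also at an unadjusted p under 0.05. In NCI-H660 at 0.5 µM 0 of 8 detected members were called higher (4.36%) or lower (3.27%) by limma, with 2, SOX9 and FKBP5, past an unadjusted p under 0.05. At 10 µM 1 rose (16.9%) and 1 fell (16.8%). Member shares in NCI-H660, in PC3 and on the VCaP-labelled arrays at 10 µM, and for falls on the LNCaP-labelled arrays, lay near the shares of all genes. With each line fitted alone, calls of FOXA1, GATA2, GRHL2 and KLF5 on the LNCaP-labelled arrays at 0.5 µM were lost, as were FOXA1 and KLF5 at 0.5 µM and FOXA1 at 10 µM on the VCaP-labelled ones, FOXA1 and GATA2 in PC3 and GRHL2 in NCI-H660. Calls of all genes also became fewer in this setting. On the LNCaP-labelled arrays at 0.5 µM 1569 genes passed, where the single model called 2063 higher and 1961 lower. At 10 µM 223 passed in PC3 (1951 and 1698 in the single model) and 3116 in NCI-H660 (2073 and 2060).

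**Figure D2:**
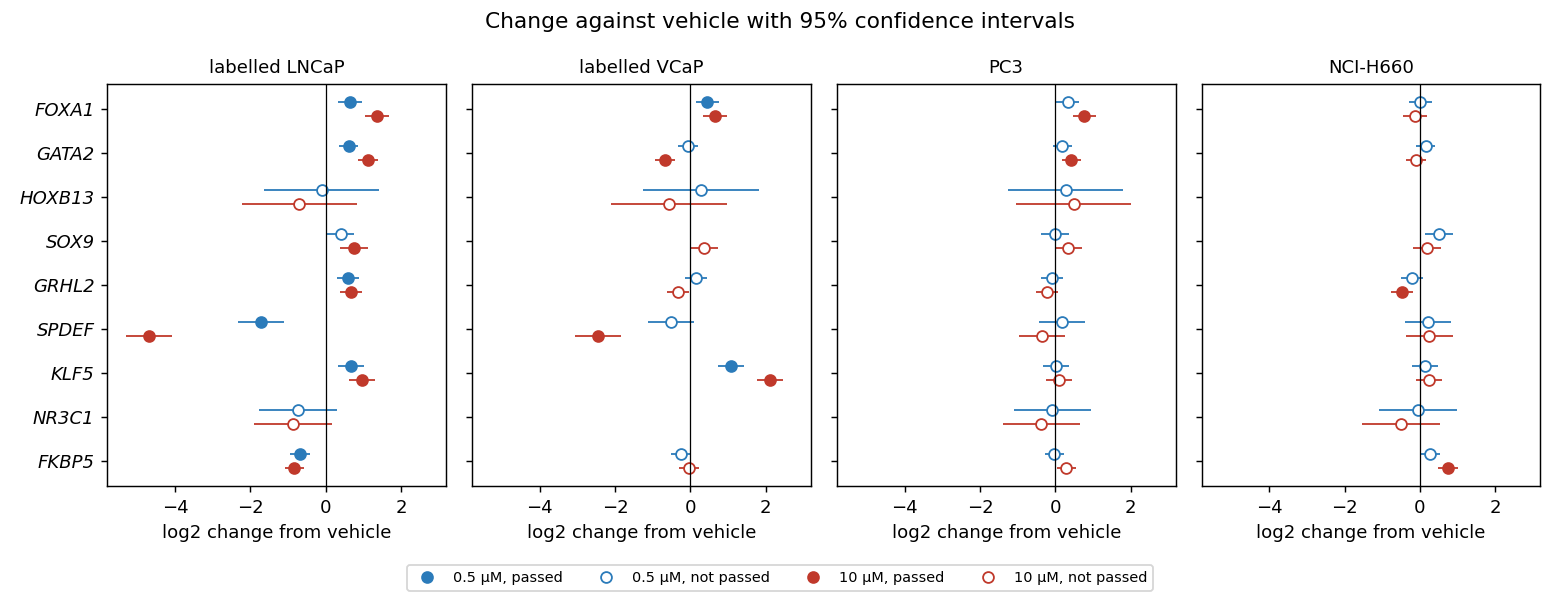
Change in signal (log2, I-BET762 minus vehicle) of each detected member in each labelled line at 0.5 µM and 10 µM, with 95% confidence intervals from the single limma model; filled points passed and open points did not. SPDEF lies furthest to the left, at -4.69 on the LNCaP-labelled arrays at 10 µM, and KLF5 furthest to the right, at 2.11 on the VCaP-labelled ones.

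FOXA1, the forkhead pioneer factor of the luminal lineage (probe set 204667_at), rose on the LNCaP-labelled arrays, on the VCaP-labelled ones and in PC3. On the LNCaP-labelled arrays its signals were 3979.5 and 4004 in vehicle, 5919 and 6589.6 at 0.5 µM and 9341 and 11411 at 10 µM. No treated array overlapped with vehicle, and the 10 µM arrays lay above both 0.5 µM arrays. The changes were 0.65 at 0.5 µM (standard error 0.15, limma adjusted p = 0.00975) and 1.37 at 10 µM (adjusted p = 1.1e-05), a 2.59-fold rise at the higher concentration.

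Signals of FOXA1 on the VCaP-labelled arrays were 2848 and 2653 in vehicle, 4039.9 and 3502 at 0.5 µM and 3872 and 4805 at 10 µM. Treated and vehicle arrays did not overlap here either, but arrays of both concentrations overlapped each other. The rise was 0.45 at 0.5 µM (adjusted p = 0.0791) and 0.65 at 10 µM (adjusted p = 0.00657). The call at 0.5 µM was lost without any 1 of its 4 arrays, at changes of 0.50 without vehicle replicate 1, 0.40 without vehicle replicate 2, 0.35 without 0.5 µM replicate 1 and 0.56 without 0.5 µM replicate 2.

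In PC3 FOXA1 had 929 and 873.5 in vehicle, 1017 and 1262 at 0.5 µM and 1497 and 1594 at 10 µM, and in this line it rose by 0.78 at 10 µM (adjusted p = 0.00355). At 0.5 µM the change was 0.33 (adjusted p = 0.293), although both arrays lay above vehicle. NCI-H660 had 1046 and 1047 in vehicle, 1099 and 1014 at 0.5 µM and 972 and 946 at 10 µM, with changes of 0.01 and -0.13 (adjusted p = 0.993 and 0.682). The second probe set, 237086_at, passed in the same 3 lines, with changes of 1.82 on the LNCaP-labelled arrays, 0.65 on the VCaP-labelled ones and 1.51 in PC3 at 10 µM, and it also passed in PC3 at 0.5 µM (0.80, adjusted p = 0.00182).

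GATA2, the zinc finger factor that precedes the androgen receptor on chromatin (probe set 209710_at), moved in opposite directions on the arrays with the labels LNCaP and VCaP. Its signals on the LNCaP-labelled arrays were 6753 and 7201 in vehicle, 10549.8 and 10765 at 0.5 µM and 15689.5 and 14794 at 10 µM. The 3 treatments were fully separated, with the 10 µM arrays above all others. GATA2 rose by 0.61 at 0.5 µM (standard error 0.12, limma adjusted p = 0.00414) and by 1.13 at 10 µM (adjusted p = 1.13e-05), 2.19-fold at 10 µM.

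On the VCaP-labelled arrays GATA2 had 2127 and 2057 in vehicle, 2054 and 1964 at 0.5 µM and 1314 and 1296 at 10 µM. The 0.5 µM arrays lay just below vehicle and the 10 µM arrays far below all others, and the change was -0.68 at 10 µM (adjusted p = 0.00127) and -0.06 at 0.5 µM (adjusted p = 0.876). The difference between both labels was 1.81 at 10 µM (adjusted p = 3.81e-05). The fall there rests on 1 of 3 probe sets: 210358_x_at changed by -0.50 (adjusted p = 0.155), 207954_at, dim at a mean of 207 at 10 µM and 123 in vehicle, changed by 0.76 (adjusted p = 0.168), and the mean over all 3 was -0.14 (adjusted p = 0.627). The rise on the LNCaP-labelled arrays passed at 10 µM for all 3 probe sets, at 0.95 to 1.13.

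GATA2 in PC3 had 697 and 729 in vehicle, 898 and 737 at 0.5 µM and 1039.9 and 888 at 10 µM. It rose by 0.43 at 10 µM (adjusted p = 0.0351), with 10 µM arrays above vehicle, a call that was lost without vehicle replicate 1 (0.40), vehicle replicate 2 (0.46) or 10 µM replicate 1 (0.32). The arrays of NCI-H660 had 466 and 448 in vehicle, 497 and 518 at 0.5 µM and 397.5 and 455 at 10 µM, and neither concentration passed (0.15 and -0.10). One of the other probe sets, 210358_x_at, fell there by 0.83 at 10 µM (adjusted p = 0.022).

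HOXB13, a homeobox factor of the prostate epithelium (probe set 209844_at), had 7123 and 6893 in vehicle, 6364 and 6667 at 0.5 µM and 3937 and 4723 at 10 µM on the LNCaP-labelled arrays. The VCaP-labelled ones had 6119.5 and 6347 in vehicle, 7822 and 7267 at 0.5 µM and 4540.5 and 3888 at 10 µM. In both sets the 10 µM arrays lay below all vehicle and 0.5 µM arrays. The changes at 10 µM were -0.70 (95% interval -2.23 to 0.83, limma adjusted p = 0.577) and -0.57 (adjusted p = 0.706) with a standard error of 0.71, so neither passed.

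That standard error is shared by all groups of HOXB13 and takes in the NCI-H660 arrays, whose signals, 1.6 to 17.6, lie far under the floor. On a scale of log2(signal + 50) the changes of HOXB13 at 10 µM were -0.69 (adjusted p = 0.00058) on the LNCaP-labelled arrays and -0.56 (adjusted p = 0.00461) on the VCaP-labelled ones, and both passed. They also passed with each line fitted alone (adjusted p = 0.0582 and 0.0961). The second probe set, 230105_at, had 5632 and 5546 in vehicle, 5588 and 5467 at 0.5 µM and 1752 and 1828 at 10 µM on the VCaP-labelled arrays, a fall by 1.64 at 10 µM (standard error 0.34, adjusted p = 0.00368). In PC3, where HOXB13 is dimmer, signals were 788 and 815 in vehicle, 959 and 985 at 0.5 µM and 1050.5 and 1205 at 10 µM, and changes of 0.28 and 0.49 did not pass. With log2(signal + 50) the change there at 10 µM passed higher (0.46, adjusted p = 0.0218). The second probe set, 230105_at, did not rise in PC3, at means of 587 in vehicle, 366 at 0.5 µM and 588 at 10 µM. Its changes of -0.68 and 0.01 did not pass.

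SOX9, a high mobility group factor of prostate epithelial progenitors (probe set 202936_s_at), had 1026 and 1094 in vehicle, 1388 and 1401 at 0.5 µM and 1854 and 1721 at 10 µM on the LNCaP-labelled arrays. Signals were ordered by concentration without overlap. SOX9 rose by 0.75 at 10 µM (standard error 0.17, limma adjusted p = 0.00471), and at 0.5 µM the change was 0.40 (adjusted p = 0.166), which passed with an intensity trend (adjusted p = 0.0933), with log2(signal + 50) (adjusted p = 0.08) and as the mean over both probe sets (adjusted p = 0.0904). The second probe set, 202935_s_at, rose by 0.92 at 10 µM (adjusted p = 0.0047).

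PC3, the line with the highest SOX9, had 3429.7 and 3897 in vehicle, 3594 and 3719 at 0.5 µM and 5296 and 4093 at 10 µM. The change at 10 µM was 0.35 (adjusted p = 0.254), and arrays at 0.5 µM lay within the range of vehicle. NCI-H660 had 296 and 328 in vehicle, 434 and 455 at 0.5 µM and 306 and 409.7 at 10 µM. Both 0.5 µM arrays lay above vehicle there, at a change of 0.51 (adjusted p = 0.175), which passed with log2(signal + 50) and with an intensity trend. The second probe set changed by 0.19 in NCI-H660 at 0.5 µM and did not pass in the single model. On the VCaP-labelled arrays SOX9 signals of 77.9 to 115 lay about the floor in every treatment and no change passed.

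GRHL2, a grainyhead factor that maintains epithelial junction genes (its single probe set, 219388_at), had 4573 and 4940.1 in vehicle, 7389 and 7049 at 0.5 µM and 7721 and 7524 at 10 µM on the LNCaP-labelled arrays. All treated arrays lay above vehicle, and the step between the concentrations was small. GRHL2 rose by 0.60 at 0.5 µM (standard error 0.14, limma adjusted p = 0.00983) and 0.68 at 10 µM (adjusted p = 0.00201). Centring each array on its median, which moved the median change of all probe sets by -0.18 on these arrays at 0.5 µM, ended the 0.5 µM calls of GRHL2 (0.42) and FOXA1 (0.46).

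In NCI-H660 GRHL2 had 1181 and 955 in vehicle, 817 and 1044 at 0.5 µM and 725 and 789.9 at 10 µM. It fell by 0.49 at 10 µM (adjusted p = 0.0308), with both 10 µM arrays below vehicle, and the call was lost without vehicle replicate 1 (-0.34), without 10 µM replicate 1 (-0.43) and with median centring (-0.31), a setting that moved the median of all probe sets by 0.18 in this contrast. The VCaP-labelled arrays had 3129 and 2868 in vehicle, 3267 and 3323 at 0.5 µM and 2306 and 2463 at 10 µM. Neither change against vehicle passed there (0.14 and -0.33), but 10 µM lay below 0.5 µM by 0.47 (adjusted p = 0.0986). The change at 10 µM against vehicle passed lower with an intensity trend (adjusted p = 0.0372), with log2(signal + 50) (adjusted p = 0.0797) and with median centring (-0.46, adjusted p = 0.0769). PC3 had 2305 to 2918 over all 6 arrays, with changes of -0.10 and -0.22 that did not pass.

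SPDEF, an ETS family factor of luminal and secretory cells (probe set 213441_x_at), showed the largest change of any member in any contrast against vehicle. On the LNCaP-labelled arrays its signals were 5186 and 5392 in vehicle, 1627 and 1569 at 0.5 µM and 200 and 209.9 at 10 µM. The 3 treatments were far apart, with the 10 µM arrays lowest. SPDEF fell by 1.73 at 0.5 µM (standard error 0.28, limma adjusted p = 0.00123, 3.31-fold) and by 4.69 at 10 µM (adjusted p = 7.11e-08, 25.8-fold).

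The VCaP-labelled arrays had SPDEF signals of 3484 and 3349.8 in vehicle, 2286 and 2463 at 0.5 µM and 741 and 529 at 10 µM. All treated arrays lay below vehicle, and SPDEF fell by 2.45 at 10 µM (adjusted p = 4.37e-05, 5.46-fold), while the change at 0.5 µM was -0.53 (adjusted p = 0.342). The fall at 10 µM was larger on the LNCaP-labelled arrays, by 2.24 (adjusted p = 0.00391). All 5 probe sets of SPDEF end in _x_at, a class that can cross-hybridise with other transcripts. Of these, 3 passed lower in both labels at 10 µM, with changes of -4.69 to -6.89 on the LNCaP-labelled arrays and -1.70 to -2.45 on the VCaP-labelled ones, and 2 lay near the floor and did not pass. The change of -6.89 belongs to 214404_x_at, whose mean at 10 µM, 35.9, lay under the floor.

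In PC3 SPDEF had 1012 and 1116 in vehicle, 1269 and 1132 at 0.5 µM and 873 and 787 at 10 µM. The 10 µM arrays lay below vehicle, at a change of -0.36 that did not pass, and the fall on the LNCaP-labelled arrays was larger than this change by 4.33 (adjusted p = 2.39e-05). NCI-H660 had 206 and 88.3 in vehicle, 177 and 136 at 0.5 µM and 156 and 165.5 at 10 µM, and its vehicle arrays spanned the floor. The change at 10 µM in NCI-H660 was 0.25, and 0.86 without vehicle replicate 1. The probe sets 214404_x_at and 220192_x_at, which passed lower in both labels, lay under the floor in NCI-H660 in every treatment. Their means there were 12.5 to 15.5 and 17.2 to 20.4.

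KLF5, a Krüppel-like factor shared by luminal and basal progenitors (probe set 209212_s_at), rose where it was dim in vehicle. On the VCaP-labelled arrays its signals were 169 and 136 in vehicle, 342.5 and 303 at 0.5 µM and 599 and 715 at 10 µM. Treatments were separated without overlap. KLF5 rose by 1.09 at 0.5 µM (standard error 0.16, limma adjusted p = 0.000774, 2.13-fold) and by 2.11 at 10 µM (adjusted p = 1.08e-06, 4.32-fold).

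On the LNCaP-labelled arrays KLF5 had 201 and 170.4 in vehicle, 275.5 and 319 at 0.5 µM and 397 and 333 at 10 µM. It rose by 0.68 at 0.5 µM (adjusted p = 0.0126) and 0.97 at 10 µM (adjusted p = 0.000445), again with every treated array above vehicle. The 0.5 µM call was lost without vehicle replicate 2 (0.56) or 0.5 µM replicate 2 (0.57). The rise at 10 µM was smaller than on the VCaP-labelled arrays by 1.14 (adjusted p = 0.00729).

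PC3, which had the highest KLF5, gave 1785 and 1767 in vehicle, 1894 and 1685 at 0.5 µM and 1996 and 1815 at 10 µM, with overlapping treatments and changes of 0.01 and 0.10. NCI-H660 gave 874 and 714 in vehicle, 867 and 874 at 0.5 µM and 945 and 909 at 10 µM, with changes of 0.14 and 0.23. Neither line passed at either concentration. The second probe set, 209211_at, rose at 10 µM by 2.18 on the VCaP-labelled arrays (adjusted p = 3.13e-05) and by 1.22 on the LNCaP-labelled ones (adjusted p = 0.00195). Its vehicle mean on the LNCaP-labelled arrays, 82.2, lay under the floor.

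NR3C1, the glucocorticoid receptor gene (probe set 211671_s_at), had 638 and 627 in vehicle, 383 and 378 at 0.5 µM and 341 and 357.5 at 10 µM on the LNCaP-labelled arrays. Every treated array lay well below both vehicle arrays. The changes of -0.73 and -0.86 did not pass in the single model (standard error 0.48, limma adjusted p = 0.405 and 0.251), whose spread takes in the VCaP-labelled arrays, where signals of 10.8 to 60.7 lay under the floor. With the line fitted alone both passed (adjusted p = 0.0794 and 0.026), as they did on a scale of log2(signal + 50) (-0.66, adjusted p = 0.0195, and -0.77, adjusted p = 0.00403). Of the other probe sets, 201865_x_at and 216321_s_at fell by 0.98 each at 10 µM in the single model (adjusted p = 0.0687 and 0.072).

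In NCI-H660, the line with the highest NR3C1, signals were 2735 and 3057 in vehicle, 2909 and 2716 at 0.5 µM and 2103 and 1997 at 10 µM. The 10 µM arrays lay below all others, at a change of -0.50 (adjusted p = 0.608). PC3 had 1494 and 1612 in vehicle, 1388 and 1569 at 0.5 µM and 1177 and 1235 at 10 µM, also with the 10 µM arrays lowest, at -0.36. Neither passed in the single model. In NCI-H660 the change at 10 µM passed lower with log2(signal + 50) (-0.49, adjusted p = 0.082), and with the line fitted alone 216321_s_at (-0.73, adjusted p = 0.0576) and 232431_at (-0.69, adjusted p = 0.0628) passed lower. All 5 probe sets lay under the floor on the VCaP-labelled arrays.

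FKBP5, the receptor cochaperone (probe set 224840_at), fell on the LNCaP-labelled arrays and rose in NCI-H660. Its signals on the LNCaP-labelled arrays were 7215 and 6985 in vehicle, 4343 and 4486 at 0.5 µM and 4067 and 3923 at 10 µM. Vehicle lay far above all treated arrays. FKBP5 fell by 0.69 at 0.5 µM (standard error 0.12, limma adjusted p = 0.0018) and by 0.83 at 10 µM (adjusted p = 0.000149).

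NCI-H660 had FKBP5 signals of 1650.0 and 1604 in vehicle, 1903 and 2041 at 0.5 µM and 2784 and 2654 at 10 µM. Signals climbed with concentration without overlap, and FKBP5 rose by 0.74 at 10 µM (adjusted p = 0.00103), with a change of 0.28 at 0.5 µM (adjusted p = 0.339). The changes of both sets of arrays at 10 µM differed by -1.57, LNCaP-labelled minus NCI-H660 (adjusted p = 4.7e-05). All 3 probe sets passed in these directions at 10 µM.

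The VCaP-labelled arrays had 7118 and 7287 in vehicle, 5751 and 6320.2 at 0.5 µM and 7309 and 6714 at 10 µM. The 10 µM and vehicle arrays overlapped, at a change of -0.04 (adjusted p = 0.897). At 0.5 µM the change was -0.26 (adjusted p = 0.249), and 1 of the other probe sets, 224856_at, passed lower (-0.40, adjusted p = 0.0395). In PC3 FKBP5 had 1884 and 1795 in vehicle, 1606 and 2042 at 0.5 µM and 2166 and 2363 at 10 µM, at a change of 0.30 at 10 µM (adjusted p = 0.148) that passed with an intensity trend and with log2(signal + 50).

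**Figure D3:**
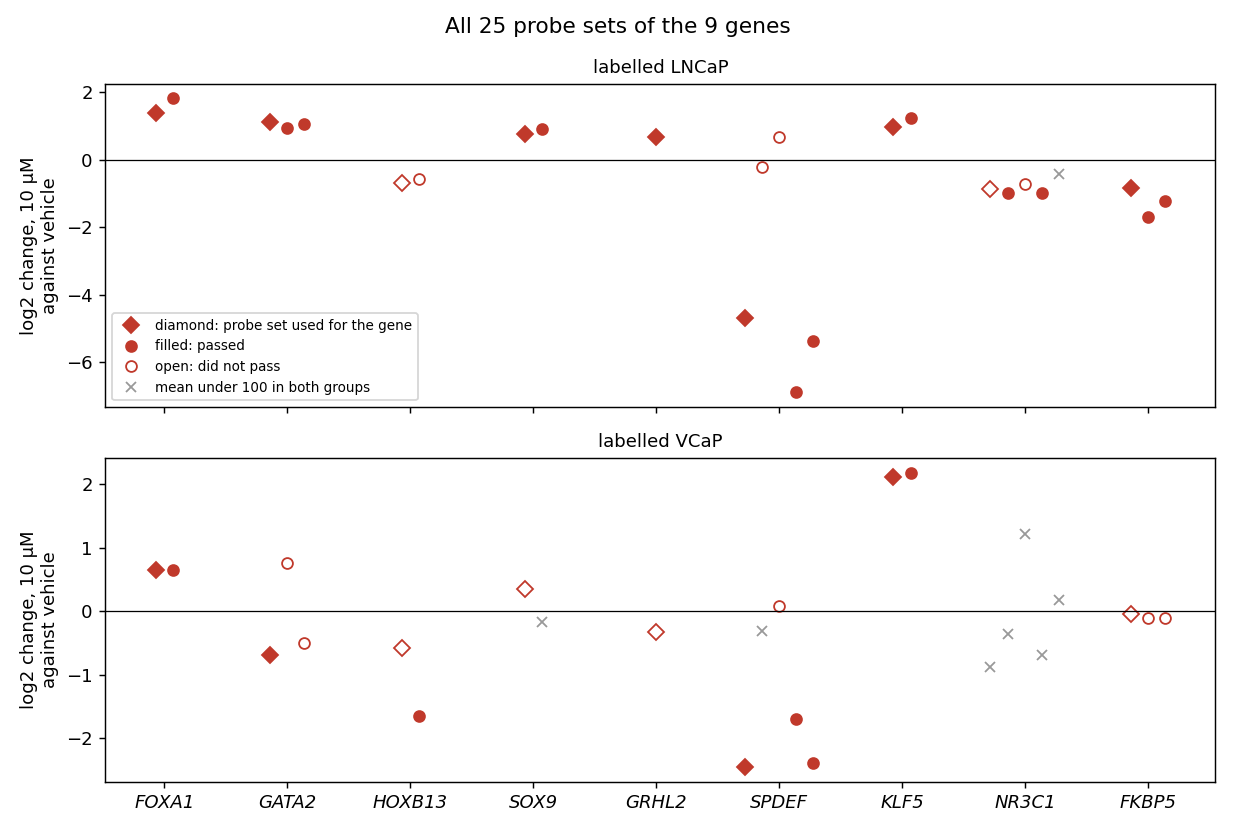
Change in signal (log2, 10 µM minus vehicle) of all 25 probe sets of the 9 members on the LNCaP-labelled and VCaP-labelled arrays; diamonds are the probe sets used for a gene, filled symbols passed, open ones did not and crosses lay under the floor of 100 in both groups. The 3 probe sets of GATA2 lie together on the LNCaP-labelled arrays, at 0.95 to 1.13, and apart on the VCaP-labelled ones, at -0.68 to 0.76.

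Set directly against 0.5 µM, 10 µM gave different signals for 3 of 9 members on the LNCaP-labelled arrays (19.7% of all detected genes), 4 of 8 on the VCaP-labelled ones (9.91%) and 1 of 8 in NCI-H660 (7.32%). In PC3 limma called 0 of 9 (2.16%), with 2, FOXA1 and FKBP5, past an unadjusted p under 0.05 and adjusted p-values of 0.216 and 0.293. SPDEF was lower at 10 µM by 2.96 on the LNCaP-labelled arrays (limma adjusted p = 5.29e-05) and by 1.92 on the VCaP-labelled ones (adjusted p = 0.00287). FOXA1 was higher by 0.73 (adjusted p = 0.00946) and GATA2 by 0.52 (adjusted p = 0.0212) on the LNCaP-labelled arrays. On the VCaP-labelled ones KLF5 was higher by 1.02 (adjusted p = 0.00394), and GATA2 was lower by 0.62 (adjusted p = 0.0145). In NCI-H660 FKBP5 was higher by 0.46 (adjusted p = 0.0691), which was lost without any 1 of its 4 arrays (0 members left). The step of GRHL2 on the VCaP-labelled arrays was also lost without any 1 of 4 arrays (3 members left), and that of GATA2 on the LNCaP-labelled ones without replicate 1 of 0.5 µM or of 10 µM (2 left). With each line fitted alone, 1 of these calls held, that of SPDEF on the LNCaP-labelled arrays.

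The response itself was set against that of another line. Between the labels LNCaP and VCaP 1 member differed at 0.5 µM (8.68% of all detected genes), GATA2, by 0.67 (limma adjusted p = 0.0581), and 6 at 10 µM (21.8%). Those 6 were FOXA1, whose rise was larger on the LNCaP-labelled arrays by 0.72 (adjusted p = 0.0506), GRHL2, which differed by 1.01 (adjusted p = 0.00573), FKBP5, which differed by -0.79 (adjusted p = 0.0113), and GATA2, SPDEF and KLF5 as given above. Over all 4 lines the response differed for 4 members at 0.5 µM (18.5% of all detected genes) and for 6 at 10 µM (43.7%). With the probe sets used, HOXB13, SOX9 and NR3C1 passed at neither concentration in this F-test, which in NR3C1 and HOXB13 carries the same standard errors as above. Some other probe sets differed from this. At 10 µM 202935_s_at of SOX9 (adjusted p = 0.0439) and 201866_s_at of NR3C1 (adjusted p = 0.0595) passed. At 0.5 µM 216321_s_at of NR3C1 (adjusted p = 0.0452) and 237086_at of FOXA1 (adjusted p = 0.0159) passed, while 209211_at of KLF5 did not (adjusted p = 0.228).

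Among the 9 members the log2 signals over the 24 arrays rose and fell together for FOXA1 and GATA2 (Pearson's r = 0.92), GATA2 and GRHL2 (r = 0.91) and HOXB13 and GRHL2 (r = 0.88), and ran against each other for NR3C1 and FKBP5 (r = -0.88) and for KLF5 and FKBP5 (r = -0.83). SPDEF correlated with HOXB13 at 0.78 and with FOXA1 at 0.32. These arrays come from only 4 lines, so the values describe mainly how lines differ. The genes most like each member over the same arrays, among 14407 genes, were DGCR11 for FOXA1 (r = 0.98), MCTP2 for GATA2 (r = 0.98), TTLL12 for HOXB13 (r = 0.99), DNAJB6 for SOX9 (r = 0.98) and RAB1B for GRHL2 (r = 0.97). For SPDEF it was GALNT7 (r = 0.96), for KLF5 STK26 (r = 0.95), for NR3C1 HYI (r = 0.99) and for FKBP5 HPN (r = 0.97).

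Other transcription factors of the prostate epithelium gave a mixed picture beside the members. Of 25 detected on the LNCaP-labelled arrays at 10 µM, 7 rose and 6 fell, near the shares of all genes (27.1% and 26.7%). On the VCaP-labelled ones 5 of 26 rose and 9 fell (20.1% and 21.8% of all genes), in PC3 1 of 26 rose and 11 fell (16.1% and 14.0%), and in NCI-H660 1 of 28 rose and 10 fell (16.9% and 16.8%). CREB3L4, an androgen-regulated factor of the secretory pathway, averaged 365 ± 28.5 at 10 µM against 3650 ± 41.7 in vehicle on the LNCaP-labelled arrays (SD, n = 2 each), a fall by 3.33 (limma adjusted p = 1.71e-09), and it fell by 2.83 on the VCaP-labelled ones (adjusted p = 4.14e-09). NFIC, of the nuclear factor I family whose members bind FOXA1, fell at 10 µM in all 4 lines, by 2.41 on the LNCaP-labelled arrays, 1.33 on the VCaP-labelled ones, 1.15 in PC3 and 1.65 in NCI-H660. SOX4 rose by 1.81 on the LNCaP-labelled arrays (adjusted p = 1.69e-07).

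Genes that act with or after the receptors were counted in the same way. Of 19 androgen-induced genes detected on the LNCaP-labelled arrays at 10 µM, 11 fell and 1 rose (26.7% and 27.1% of all genes), and of 20 on the VCaP-labelled ones 7 fell and 2 rose (21.8% and 20.1%). FKBP5 itself is on this list and, although both receptors induce it, not on that of the glucocorticoid-induced genes. KLK3, which encodes prostate-specific antigen, averaged 229 ± 35.4 at 10 µM against 7931 ± 267 in vehicle on the LNCaP-labelled arrays (fall by 5.13, limma adjusted p = 0.000259). By contrast, of 21 glucocorticoid-induced genes 11 rose and 1 fell on the LNCaP-labelled arrays at 10 µM (27.1% and 26.7% of all genes), 6 of 19 rose and 2 fell on the VCaP-labelled ones (20.1% and 21.8%), 7 of 18 rose and 3 fell in PC3 (16.1% and 14.0%), and 8 of 19 rose and 4 fell in NCI-H660 (16.9% and 16.8%). CDKN1C, a cyclin-dependent kinase inhibitor on that list, rose by 5.78 on the LNCaP-labelled arrays (adjusted p = 1.71e-09). FKBP4, the cochaperone that competes with FKBP5 for the receptor complex, fell at 10 µM by 1.03 on the LNCaP-labelled arrays, 0.73 on the VCaP-labelled ones and 0.38 in PC3.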

How the data were processed

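RNA of 4 cell lines in vehicle, 0.5 µM or 10 µM I-BET762 for 24 hours was analysed, with 2 biological replicates in each of 12 groups as the labels give them. The authors processed the arrays with the MAS5 algorithm, whose version was not given in the sources used here, and the deposited values are intensities on a linear scale, scaled to a target of 500. The mean signal after trimming 2% at each end was checked and was 500 on every array. Of 54675 probe sets, 62 controls were left out. The platform annotation gave 41091 probe sets 1 symbol, 1801 several and 11721 none, and probe sets with several named no gene.

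One linear model of all 12 groups was fitted to the log2 signals (limma 3.58.1, R 4.3.3, no intensity trend, 12 residual and 1.29 prior degrees of freedom). The contrasts were I-BET762 against vehicle, 10 µM against 0.5 µM, lines against each other in vehicle, and the changes of lines against each other, and an F-test compared the changes over all 4 lines. Benjamini-Hochberg adjustment covered 54613 probe sets in each contrast. To pass, a gene needed an adjusted p under 0.1 and, in a compared group, a mean signal of 100 or more, and the fold minimum of 2 in the methods was counted apart. The floor stands in for the detection calls of the authors, which were not used here. Background percentages count all detected genes by the same rule. Where a group lay under the floor, the fold was set against the floor and is a lower bound.

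The genes named are the 9 members with all their probe sets, and ERG and ETV1. From each list of related genes, up to 4 with the largest changes among those that passed were taken in a contrast. Only some of these are named, not always those that changed most. Also named are the genes whose signals correlate best with a member over 24 arrays (values under 100 set to 100). Each gene was read from its brightest probe set by mean log2 signal, those with the suffix _x_at being passed over unless all were of that kind. The members, the 9 lists and the tests were chosen with earlier results of these data known, and the lists were written from general knowledge. The gene of the androgen receptor is not reported here. The fit was tested on simulated data. Promoter sequences are from RefSeq (GRCh38.p14), matched by symbol.

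Alternatives were no floor, a floor of 200, a fold minimum of 2, an adjusted p under 0.05, quantile normalization, median centring, log2(signal + 50), an intensity trend, the mean over a gene's probe sets, a separate fit of each line, a block for the replicate number, and leaving out 1 array at a time, with the spread of a lone array assumed to be that of the other groups.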

Additional observations from a re-analysis of the deposited data

Results flagged for a closer look

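The response to I-BET762 differed between the 4 labelled lines for 4 members at 0.5 µM and for 6 members at 10 µM. The test was an F-test of the differences in change (limma, Benjamini-Hochberg over all probe sets). By the same test 18.5% of all detected genes differed at 0.5 µM and 43.7% at 10 µM. A difference between lines was therefore common among all genes at 10 µM and is not particular to these members. At 0.5 µM the adjusted p-values were 0.0657 for GRHL2, 0.0244 for SPDEF, 0.0268 for KLF5 and 0.0165 for FKBP5. On the LNCaP-labelled arrays at this concentration GRHL2 passed higher and SPDEF and FKBP5 passed lower, and KLF5 passed higher on these and on the VCaP-labelled ones. Another probe set of FKBP5, 224856_at, passed lower on the VCaP-labelled arrays as well (-0.40, adjusted p = 0.0395). The result for GRHL2 is the least stable of these, and it was lost without any 1 of 7 arrays, namely NCI-H660 vehicle replicate 1 and 0.5 µM replicate 1, all 4 LNCaP-labelled ones in that comparison, and PC3 vehicle replicate 1.

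At 10 µM the adjusted p-values were 0.00139 for FOXA1, 5.82e-05 for GATA2, 0.00268 for GRHL2, 1.14e-05 for SPDEF, 0.000137 for KLF5 and 0.000178 for FKBP5. GATA2, GRHL2 and FKBP5 each passed in opposite directions in different lines: GATA2 rose on the LNCaP-labelled arrays and in PC3 and fell on the VCaP-labelled ones, GRHL2 rose on the LNCaP-labelled arrays and fell in NCI-H660, and FKBP5 fell on the LNCaP-labelled arrays and rose in NCI-H660. As given above, the fall of GATA2 rests on 1 of 3 probe sets, and its rise in PC3 was lost without some single arrays. The fall of GRHL2 in NCI-H660 was also lost without some single arrays and with median centring. SPDEF passed lower on the LNCaP-labelled and VCaP-labelled arrays, and KLF5 passed higher on both. FOXA1 rose on those and in PC3, and its change in PC3 exceeded that in NCI-H660 by 0.90 (limma adjusted p = 0.0299).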

How the results depend on the processing

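No called change of a member changed sign under the alternatives run, while some uncalled ones near 0 did, among them FOXA1 and GATA2 in NCI-H660 at 10 µM and KLF5 in PC3 at 0.5 µM with median centring. Of 1080 values of 72 changes of single genes, 968 kept their side of the threshold or moved within the spread, 45 lost a call, 27 gained one and 40 moved without a call. The main limit is 2 arrays per group, and the shared standard errors of HOXB13 and NR3C1 take in arrays of another line that lie under the floor.

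With the fold minimum of 2, the members called against vehicle were 1 in place of 6 (LNCaP-labelled, 0.5 µM), 3 of 7 (LNCaP-labelled, 10 µM), 1 of 2 and 2 of 4 (VCaP-labelled, 0.5 and 10 µM), and 0 of 2 at 10 µM both in PC3 and in NCI-H660, all by limma. For 10 µM against 0.5 µM they were 1, 2 and 0 (LNCaP-labelled, VCaP-labelled and NCI-H660), and between the labels LNCaP and VCaP in vehicle 3 of 5. An adjusted p under 0.05 left 1 on the VCaP-labelled arrays at 0.5 µM and 0 for 10 µM against 0.5 µM in NCI-H660.

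Median centring left 1 on the VCaP-labelled arrays at 0.5 µM and 1 in NCI-H660 at 10 µM. With it the median of all probe sets shifted by -0.18 (LNCaP-labelled, 0.5 µM), -0.13 (LNCaP-labelled and VCaP-labelled, 10 µM each) and 0.18 (NCI-H660, 10 µM). The scale log2(signal + 50) called 4 in PC3 at 10 µM and 1, SOX9, in NCI-H660 at 0.5 µM. An intensity trend called 1 in NCI-H660 at 0.5 µM and 2 in PC3 between the concentrations. The mean over probe sets called 1 in PC3 in each of its 3 contrasts, and 0 in NCI-H660 between the concentrations.

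Each line fitted alone, with fewer arrays to estimate the spread, called 3 (LNCaP-labelled, 0.5 µM), 0 (VCaP-labelled, 0.5 µM), 0 (PC3, 10 µM) and 1 (NCI-H660, 10 µM). Between the concentrations it called 1 on the LNCaP-labelled arrays, 0 on the VCaP-labelled ones and 0 in NCI-H660. Same-numbered replicates shared only a number (correlations of their deviations -0.08 to 0.09), and the replicate block called 1 on the VCaP-labelled arrays at 0.5 µM and 0 in NCI-H660 between the concentrations.

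Leaving out 1 array gave 5 to 6 (LNCaP-labelled, 0.5 µM), 7 (10 µM), 1 (VCaP-labelled, 0.5 µM), 4 (10 µM), 1 to 2 in PC3 and 1 to 2 in NCI-H660 at 10 µM. Between the concentrations it gave 2 to 3, 3 and 0 (LNCaP-labelled, VCaP-labelled, NCI-H660), between LNCaP-labelled and PC3 in vehicle 8, and over the 4 lines 3 to 5 at 0.5 µM and 6 at 10 µM. Apart from the calls named with their arrays in the report, the cause of these changes was not tested. Beyond the numbers given above for separate fits, calls of all genes under the alternatives are not given here. The member counts in this section therefore cannot be set against them.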

Other observations

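The coregulators of the androgen receptor were mostly higher where they passed on the LNCaP-labelled arrays at 10 µM, with 11 of 21 detected higher and 2 lower, against 27.1% and 26.7% of all genes, and a median change of 0.41 against 0.03. On the VCaP-labelled arrays 7 of 20 were higher and 5 lower (20.1% and 21.8% of all genes), in PC3 5 were higher and 3 lower (16.1% and 14.0%), and in NCI-H660 4 were higher and 6 lower (16.9% and 16.8%). TLE1, a Groucho corepressor, rose by 1.23 on the LNCaP-labelled arrays (limma adjusted p = 9.9e-07), by 1.36 on the VCaP-labelled ones (adjusted p = 8.92e-07) and by 0.58 in PC3 (adjusted p = 0.00204). NCOA2, a p160 coactivator, averaged 6375 ± 746 at 10 µM against 2235 ± 59.7 in vehicle on the LNCaP-labelled arrays (rise by 1.51, adjusted p = 0.00101) and 1391 ± 120 against 2779 ± 384 in NCI-H660 (fall by 0.99, adjusted p = 0.0299; SD, n = 2 each).

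Of 15 chaperones of the steroid receptors, 7 were lower and 2 higher on the LNCaP-labelled arrays at 10 µM (26.7% and 27.1% of all genes), 4 lower and 2 higher on the VCaP-labelled ones (21.8% and 20.1%), 2 lower and 2 higher in PC3 (14.0% and 16.1%), and 1 lower and 5 higher in NCI-H660 (16.8% and 16.9%). DNAJB1, an HSP40 cochaperone, rose by 1.73 on the LNCaP-labelled arrays, 0.69 in PC3 and 1.19 in NCI-H660. FKBP8, a relative of FKBP5, was at least 4.68-fold lower on the LNCaP-labelled arrays (adjusted p = 1.13e-05) and at least 5.13-fold lower in NCI-H660 (adjusted p = 0.000414). Of the glucocorticoid-induced genes, TSC22D3 fell by 1.12 on the VCaP-labelled arrays (adjusted p = 8.25e-05), where SGK1 rose by 0.90 and TIPARP by 1.21 (adjusted p = 0.000251 and 3.1e-05), and KLF15 rose by 1.49 in NCI-H660 (adjusted p = 0.000618).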
